A study of Mus musculus with 2 samples.

Results

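Cells named here periosteal and tendon fibroblasts were taken from 2 single-cell RNA libraries of mouse femur and tibia. The name refers to the fibrous sheet around bone and the tendons anchored in it. It rests on genes, and where the cells lay was not tested. A cell was selected if it carried a UMI (a unique molecular identifier, 1 captured RNA molecule) of the proteoglycan gene Dcn and a UMI of at least 2 of the 6 genes Clec3b, Dpt, Pi16, Tnmd, Scx and Angptl7. It also had to lack UMIs of Cdh5, a junction gene of endothelium, and of Ptprc, which encodes the CD45 antigen of blood cells, and to hold under 5 UMIs of the cartilage gene Acan. This rule took 547 of 26466 kept Control cells and 457 of 29317 kept Dach1OE cells, or 1004 of 55783 in all. The study asked how the capillaries of bone affect the bone around them, by raising the transcription factor Dach1 in endothelium.

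Both groups were C57BL/6 mice of both sexes at postnatal day 30 that carried the transgene Dach1OE +/f and received tamoxifen, on postnatal days 1 and 2 per the study's methods. The Control genotype had no Cre. The other genotype, Apj CreERT2 - Dach1OE +/f, added an inducible Cre driven by Apj (also named Aplnr), a receptor gene of capillary endothelium, so that the transgene was to be switched on in endothelium and not in the fibroblasts described here. Muscle was stripped from the bones, the epiphyses were detached, and the rest was digested with collagenase and crushed. Cells with blood lineage antigens, CD45 or CD117 were then depleted with magnetic beads. How much tendon and periosteum stayed on the bones is not given in the sources used here. Each group was 1 library that pooled 2 mice, so no value below has a replicate library, no test was possible and no p-value is given. Intervals in parentheses are 95% intervals that cover counting error only.

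The outer layer of the periosteum is a sheet of fibroblasts in collagen, continuous with the loose connective tissue around vessels and nerves, and an inner layer holds progenitors that form bone. Tendon fibroblasts (tenocytes) lie in rows between parallel bundles of type I collagen, are specified by the transcription factor Scleraxis, the product of Scx, and make tenomodulin, the product of Tnmd. Clec3b, Dpt and Pi16 are genes of connective tissue fibroblasts of many organs, and Angptl7 is a secreted factor of dense connective tissue.

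Depth per selected cell was similar in the libraries, with median UMI counts of 4238 (Control) and 3873 (Dach1OE) and median gene counts of 1832 and 1718. Over all kept cells the median UMI counts were 3793.5 and 4055. The summed UMIs of the selected cells were 2571623 in Control and 2018170 in Dach1OE. The libraries had 1049 cell barcodes in common, and 25 Control and 12 Dach1OE members carried one of these. The doublet caller Scrublet marked 4.39% of the Control and 2.41% of the Dach1OE members, and these were kept. Xist UMIs without Y-linked UMIs marked 210 Control and 149 Dach1OE members as female, and Y-linked UMIs without Xist marked 103 and 91 as male. Another 219 and 202 members held neither and 15 in each library held both, and these are left out of values by sex. A comparison within a sex sets different mice against each other from the pools, so mouse and sex cannot be told apart. In cells with Cdh5, Dach1 stood at 5.35 CPM (4.71 to 6.05) in Control and 134 CPM (131 to 137) in Dach1OE, higher in the library labelled Dach1OE. In the selected cells it stood at 2.33 CPM (0.856 to 5.08) in Control and 6.44 CPM (3.43 to 11.0) in Dach1OE, from 6 and 13 UMIs.

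The genes of the rule are described without a test, since they chose the cells. Clec3b, which encodes the plasminogen-binding protein tetranectin, was seen in 74.2% and 83.6% of the members of Control and Dach1OE, and Dpt, which encodes the matrix protein dermatopontin, in 70.0% and 82.1%. Tnmd was seen in 36.4% and 25.6%, Scx in 23.0% and 14.2%, Angptl7 in 13.3% and 9.85% and Pi16, a peptidase inhibitor gene, in 11.7% and 9.63%. The most frequent combinations were Clec3b with Dpt alone, in 287 Control and 288 Dach1OE cells, and Tnmd with Scx alone, in 78 and 26. The rule thus gathered a large group with fibroblast genes, a smaller group with tendon genes and cells that held genes of both. A cell is said below to have the fibroblast pattern with at least 2 of Clec3b, Dpt and Pi16 and none of the others, the tendon pattern with at least 2 of Tnmd, Scx and Angptl7 and none of the former, and the mixed pattern otherwise.

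At the threshold, the cells with 2 of the 6 genes (418 Control, 362 Dach1OE) were set beside the Dcn cells with 1 of 6 (346 and 347). The 23 connective tissue fibroblast genes of a list that leaves out the rule genes summed to 14533 and 18718 CPM (counts per 1000000 UMIs) in the former, in Control and Dach1OE, and to 3978 and 3901 CPM in the latter. Osteoblast and osteocyte genes went the other way, with 1713 and 1421 CPM just inside the threshold and 15469 and 16927 CPM just outside. Dcn cells with none of the 6 genes held 1268 and 1148 CPM of the former list and 22708 and 22984 CPM of the latter. Fibroblast genes were thus higher and osteoblast genes lower just inside the threshold than just outside. The 18 tendon and ligament genes summed to 14209 and 9737 CPM just inside and to 7477 and 9675 CPM just outside, so that the sums differed in Control and were close in Dach1OE. Per cell, the median share of UMIs from them was 0.824% and 0.455% inside and 0.365% and 0.214% outside, higher inside in both. The label thus held at the threshold for fibroblast genes. Tendon genes were higher inside by the median cell, but close by the sum in Dach1OE. In a set of chondrocytes their median share was 0.939% and 0.867%, above that just inside. Their sum there was lower, at 9711 and 8952 CPM. The median share thus did not set the cells just inside apart from chondrocytes. The 16 periosteal and skeletal progenitor genes summed to 5993 and 6222 CPM just inside and to 3185 and 2497 CPM just outside.

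Free RNA can give a cell UMIs of genes it does not express. Of the cells with Cdh5, 1.21% and 0.673% in Control and Dach1OE met the Dcn and 2-of-6 criteria at a median depth of 3264 and 3226 UMIs, as did 0.964% and 0.478% of the cells with Ptprc at 5048 and 4842 UMIs. Members made up 3.64% and 2.73% of the cells without either gene. With every cell thinned to 1000 UMIs, the share among cells with Cdh5 was 0.257% and 0.158%, and that of members among all kept cells was 1.29% and 1.03%. The part of such RNA in the selected cells was not tested. The rule left out cells with Cdh5, Ptprc or 5 or more Acan UMIs, so low levels of endothelial, blood and chondrocyte genes follow from it and are given as a description. In the selected cells 11 endothelial genes (Cdh5 left out) summed to 168 and 182 CPM against 3073 and 2629.7 CPM in the other kept cells, and 13 chondrocyte genes to 1518 and 1598 CPM against 50333 and 57995 CPM. Skeletal muscle genes summed to 4.28 and 12.9 CPM, with 4 of 9 at 0 in Control and 3 of 9 in Dach1OE, and Schwann cell genes to 10.1 and 17.3 CPM, with 2 of 8 at 0 in both. Blood cell genes (Ptprc left out) summed to 210.4 and 140.2 CPM, mural cell genes to 734 and 749 CPM and adipocyte genes to 392 and 256 CPM.

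The first question was which genes, beyond those of the rule, marked these cells within the bone preparation. Of 6167 genes with at least 100 UMIs in the members of both libraries together, 737 (12%) were at least 2-fold higher than in the other kept cells in both libraries with intervals above 0, and 259 (4.2%) were at least 2-fold lower. Myoc, which encodes the secreted glycoprotein myocilin, stood at 576 CPM (547 to 606) in Control and 290.4 CPM (267 to 315) in Dach1OE, with a log2 ratio over the other kept cells of 7.07 in Control and 7.23 in Dach1OE. Mfap5, a microfibril component, stood at 1204 CPM (1162 to 1247) in Control and 1430.5 CPM (1379 to 1484) in Dach1OE, with log2 ratios of 6.49 and 7.33. Thbs4 (chromosome 13, 92751590-92794818, minus strand, GRCm38), a thrombospondin of tendon and muscle attachments, stood at 2969 CPM (2903 to 3037) in Control and 2176 CPM (2112 to 2242) in Dach1OE, with 6.23 and 6.79. The other kept cells held less of Thbs4, at 39.7 and 19.6 CPM.

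Igfbp6, a binding protein for insulin-like growth factor 2, reached 82.8% of Control and 85.1% of Dach1OE members and log2 ratios of 6.47 and 7.10. Col14a1, a collagen that lies on the surface of fibrils, had 6.44 and 6.88, and Tnxb, which encodes tenascin-X and links fibrils, had 6.13 and 6.67. Fndc1, a fibronectin domain gene, was seen in 81.9% of Control and 80.1% of Dach1OE members. Mstn, which encodes the muscle growth inhibitor myostatin, had the largest ratio, 7.53 and 7.73, but came from 15 Control and 21 Dach1OE cells, and a single cell gave 43.4% of the Control and 18.3% of the Dach1OE UMIs. The other 12 of the highest 20 held the secreted matrix genes Cilp, Kera and Mfap4, the chemokine genes Ccl7 and Ccl11, Angptl1 of the angiopoietin-like family, Crabp2, which encodes a retinoic acid carrier, the secretogranin gene Scg3, and Duoxa1, Islr2, Ssc5d and AW551984, whose roles in fibroblasts are less clear.

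By lists, 18 of 23 connective tissue fibroblast genes, 11 of 17 tendon and ligament genes and 12 of 15 periosteal and skeletal progenitor genes were at least 2-fold higher in members in both libraries, against 12% of all genes compared. Their median log2 ratios over the other kept cells were 3.32, 3.17 and 2.69 in Control, where the median of all genes compared was -0.023. Prrx1, a transcription factor of limb mesenchyme and of periosteal progenitors, had 2.30 and 2.72 in Control and Dach1OE, Postn, which encodes periostin, 4.44 and 4.87, and Thy1, a surface antigen of fibroblasts, 4.23 and 4.42. Sox9, the cartilage regulator that also marks periosteal progenitors, went the other way with -2.93 and -3.07. Of 12 osteoblast genes 9 and of 10 chondrocyte genes 10 were at least 2-fold lower in the members, against 4.2% of all genes, with 0 higher in either list. The limit on Acan UMIs kept chondrocytes out of the members and left them among the other kept cells, so the low chondrocyte genes, Sox9 and Col11a1 included, follow from the rule. The other kept cells also held 10849 and 11886 cells with Cdh5, so high ratios of general mesenchymal genes follow in part from the rule too. The 16 periosteal and skeletal progenitor genes summed to 5898 and 6305 CPM in members and to 849 and 802 CPM in cells with Cdh5. They summed to 3185 and 2497 CPM in Dcn cells with 1 of 6 and to 2482 and 2716 CPM in marrow stromal cells, taken by Cxcl12 with Lepr or Adipoq.

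**Figure D1:**
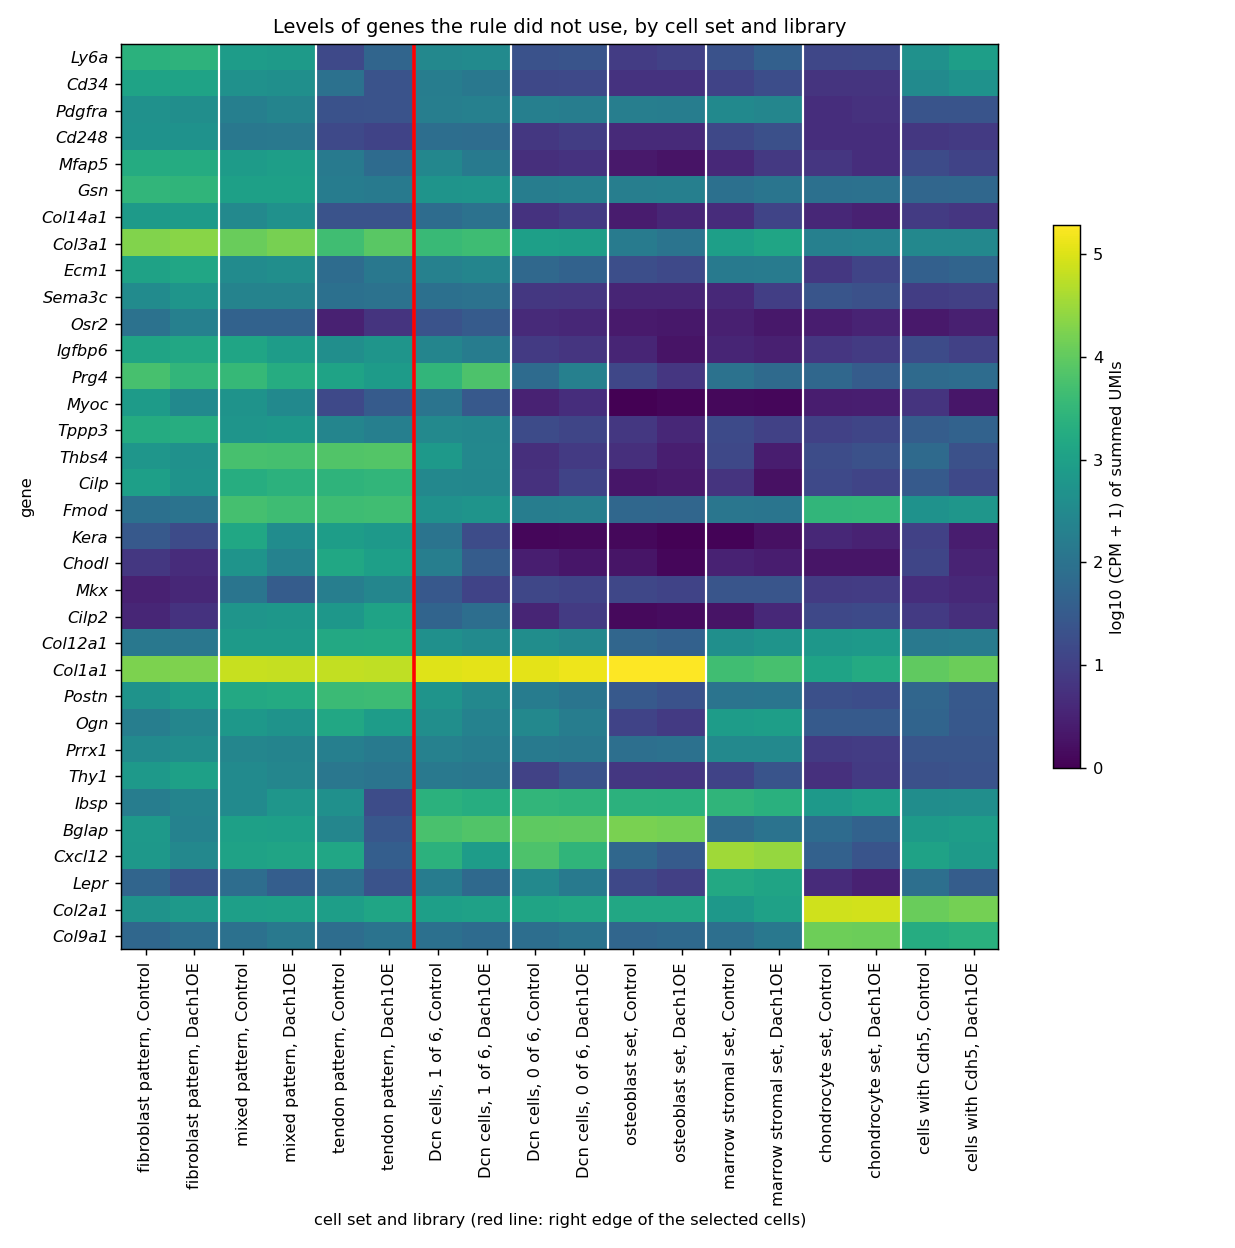
Levels of 34 genes outside the rule (rows) in sets of cells of each library (columns), as log10 of CPM plus 1 of the UMIs summed over the set. The 6 columns left of the red line are the selected cells by pattern. Mfap5 and Col14a1 are brighter in the fibroblast than in the tendon pattern, and Thbs4 is brighter in the tendon pattern. These genes are dark in the osteoblast, marrow stromal and chondrocyte sets, whereas Col1a1 is highest in the osteoblast set.

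The 23 collagen chains of a list took 105120 and 97339 CPM in Control and Dach1OE, against 50083 and 57783 CPM in the other kept cells. Type I collagen held most of these UMIs, with Col1a1 at 37776 CPM in Control and 31804 CPM in Dach1OE and Col1a2 at 34583 CPM in Control and 27997 CPM in Dach1OE, though Col1a1 stood at 189505 and 184111 CPM in osteoblasts. Col3a1, the chain of type III collagen, which is typical of loose and healing connective tissue, set the cells apart more, at 14583 CPM in Control and 18847 CPM in Dach1OE against 158 and 108 CPM in osteoblasts. In all, 13 of 21 collagen chains were at least 2-fold higher than in the other kept cells, against 12% of all genes compared, and 1, Col11a1 of cartilage, was lower, against 4.2%.

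Within the selected cells, the fibroblast and the tendon pattern differed in many genes that had no part in defining them: 438 genes (7.1%) were at least 2-fold higher in the fibroblast pattern in both libraries and 203 (3.29%) in the tendon pattern. These contrasts lie within each library and are descriptions of cells of the same mice. Ly6a, the stem cell antigen Sca-1, was higher in the fibroblast pattern by log2 ratios of 7.40 and 5.63 in Control and Dach1OE. Cd248, which encodes endosialin, was higher by 5.14 and 5.55, Pdgfra, a receptor for platelet-derived growth factor, by 4.58 and 4.28, and Gsn, which encodes the actin-severing protein gelsolin, by 4.17 and 4.31. Osr2, a transcription factor of joints and limb connective tissue, differed by 5.63 and 5.26. Ly6c1, Lrrn4cl, F13a1, Gas7, Scg3, Lrrc15 and Col14a1 completed the 12 highest.

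The tendon pattern was led by Chodl, a membrane lectin gene, which was higher there by log2 ratios of 7.81 and 8.06. Cilp2, a cartilage intermediate layer protein gene, was higher by 7.82 and 7.81, Mkx, a transcription factor of tendon differentiation, by 6.48 and 6.53, and Fmod, which encodes fibromodulin, a regulator of fibril thickness, by 5.67 and 5.51. Chad, Kera, Reln, Scube2, Spock3, Zfp185, Col26a1 and Rgs2 were the others of the 12. Fmod had the most UMIs of the 12, at 4444 CPM in Control and 4581 CPM in Dach1OE cells of the tendon pattern.

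Of the 23 connective tissue fibroblast genes, 21 were at least 2-fold higher in the fibroblast pattern and 0 in the tendon pattern, with median log2 ratios of 3.61 and 4.28. Of 17 tendon and ligament genes, 13 were higher in the tendon pattern. Tppp3, a gene of the tendon sheath, Myoc, and Prg4, which encodes the lubricant lubricin, were higher in the fibroblast pattern instead, by 2.80 and 3.37, 5.82 and 3.34 and 2.25 and 1.90. Tppp3, Myoc and Prg4 of the tendon list were thus found with Clec3b and Dpt rather than with Tnmd and Scx.

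Matrix genes divided between the patterns too, and the counts by list stand against 7.1% of all genes higher in the fibroblast and 3.29% in the tendon pattern. Col1a1 and Col1a2 were higher in the tendon pattern, by 1.84 and 1.72 and by 1.74 and 1.68, and so was Col12a1, another collagen of fibril surfaces, by 3.54 and 3.70. Col3a1 was higher in the fibroblast pattern, by 2.07 and 1.37. Of 15 elastic fibre genes, 6 were higher in the fibroblast pattern, among them Mfap5, by 3.61 and 4.72, and 4 in the tendon pattern, among them Fbn2, which encodes fibrillin-2, by 4.47 and 5.20. Of 14 complement and chemokine genes, 10 were higher in the fibroblast pattern, with Serping1, the inhibitor of complement C1, at 2.58 and 3.77. Of 9 Wnt pathway genes, Sfrp4, a secreted Wnt antagonist, was among 5 higher in the fibroblast pattern, while Wif1, a secreted inhibitor that binds Wnt, was higher in the tendon pattern by 3.72 and 2.12.

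The second question was whether the share of these cells differed with Dach1 in endothelium. Members were 2.07% (1.90 to 2.25) in Control and 1.56% (1.42 to 1.71) in Dach1OE, a difference of -0.508 percentage points (-0.732 to -0.286), Dach1OE minus Control. Thinned to 1000 UMIs per cell the difference was -0.257 percentage points (-0.438 to -0.0772). The whole rule was applied after thinning, when cells with Cdh5 numbered 7399 and 8231, against 10849 and 11886 before. Members after thinning can thus include cells that the limits on Cdh5, Ptprc and Acan left out at full depth. The share of cells with Cdh5 that met the same criteria differed by -0.534 percentage points (-0.794 to -0.284), which is as large, and by -0.0989 percentage points (-0.257 to 0.0464) after thinning. After thinning, 19 and 13 cells with Cdh5 met the criteria, against 336 and 297 members. The 2 intervals thus rest on unlike numbers of cells and do not tell the differences apart. The part of free RNA in the difference was not tested. Without the barcodes found in both libraries the difference between members was -0.478 percentage points.

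The patterns are combinations of the rule's own genes, and their shares are given as a description of these 2 libraries. The mixed pattern, with 114 and 97 cells, had rule genes of both kinds. The 18 tendon and ligament genes summed to 23325 and 20802 CPM in the mixed pattern and to 22895 and 24275 CPM in the tendon pattern. The share of the tendon pattern is thus not that of all cells rich in tendon genes. The fibroblast pattern made up 60.0% (55.7 to 64.1) in Control and 69.6% (65.1 to 73.8) in Dach1OE of the members. The tendon pattern made up 19.2% (16.0 to 22.8) in Control and 9.19% (6.70 to 12.2) in Dach1OE. The differences were 9.62 percentage points (3.68 to 15.4) and -10.0 percentage points (-14.2 to -5.71), while the mixed pattern differed by 0.384 percentage points (-4.64 to 5.49). With at least 3 of the 6 genes required of a cell they were -5.03 percentage points (-16.0 to 6.60) and -0.938 percentage points (-7.25 to 6.21), so that the first turned its sign and both intervals included 0. Without the shared barcodes the first pair stood at 8.10 and -9.37 percentage points. Out of all kept cells, tendon pattern cells were 0.397% (0.325 to 0.480) in Control and 0.143% (0.103 to 0.194) in Dach1OE, from 105 and 42 cells, and fibroblast pattern cells 1.24% (1.11 to 1.38) in Control and 1.08% (0.969 to 1.21) in Dach1OE. The differences were -0.253 percentage points (-0.345 to -0.168) for the tendon pattern and -0.155 percentage points (-0.335 to 0.0232) for the fibroblast pattern.

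The split by sex and the cells with Cdh5 bear on the tendon pattern. Among female members it was 18.6% and 12.8% in Control and Dach1OE (39 and 19 cells), a difference of -5.82 percentage points (-13.1 to 2.03). Among male members it was 21.4% and 3.30% (22 and 3 cells), a difference of -18.1 percentage points (-27.2 to -9.02). Of the cells with Cdh5 that met the criteria, 47 of 131 in Control (35.9%) and 10 of 80 in Dach1OE (12.5%) had the tendon pattern. The fibroblast pattern was that of 55 Control and 51 Dach1OE cells among them, a difference of 21.8 percentage points (7.87 to 34.4). The tendon pattern was thus less and the fibroblast pattern more frequent in the Dach1OE library also among cells with Cdh5, and among selected cells the difference was larger in males, where no test of the sexes against each other was made. Genotype, mouse and the amount of tendon left on the bones cannot be told apart in these libraries.

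**Figure D2:**
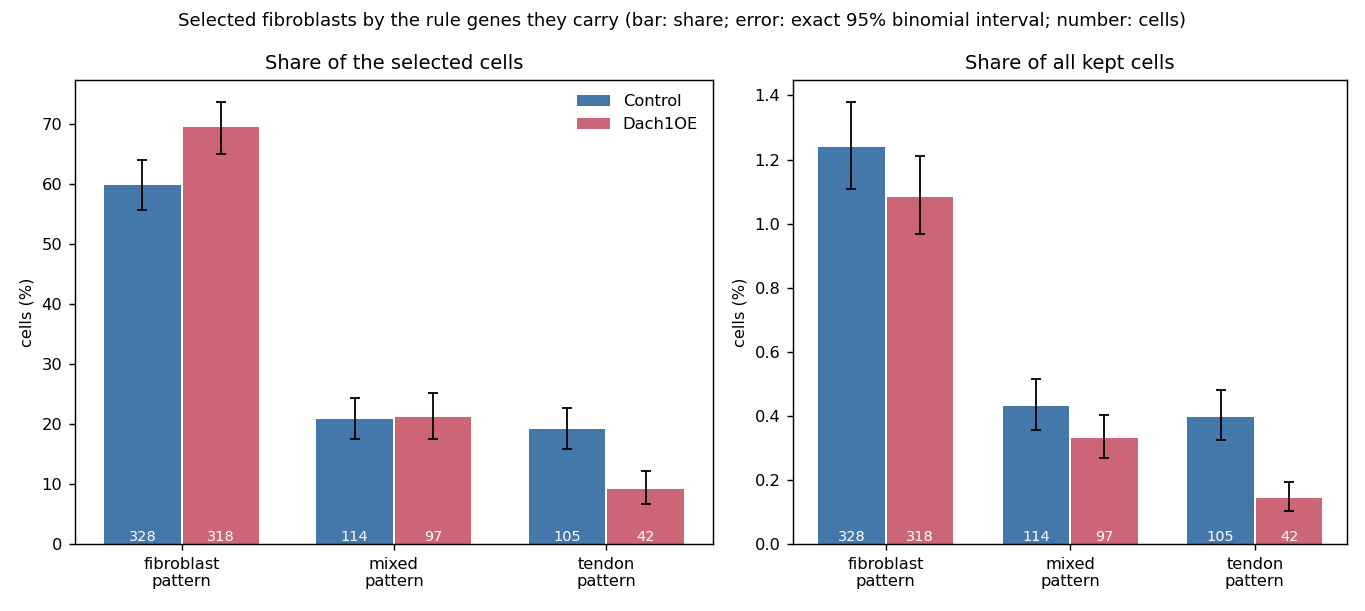
Shares of the fibroblast, mixed and tendon pattern in each library, as percent of the selected cells (left) and of all kept cells (right), with exact 95% binomial intervals and the number of cells in each bar. The tendon pattern is 19.2% of the Control and 9.19% of the Dach1OE selected cells, whereas the mixed pattern is near 21% in both. The intervals cover counting error only, with 1 library a group. With at least 3 of the 6 genes the tendon pattern differed by -0.938 percentage points (-7.25 to 6.21).

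The third question was which genes differed between Dach1OE and Control members. Of the 6167 genes compared, 22 (0.357%) were at least 2-fold higher in Dach1OE with an interval above 0 and 40 (0.649%) at least 2-fold lower, and the median log2 ratio was 0.0033. Without the shared barcodes the counts were 20 and 40. Intervals were above 0 at any size for 666 genes (10.8%) and below 0 for 560 (9.08%). Of the 40 lower genes, 20 were among those higher in the tendon pattern and 5 among those higher in the fibroblast pattern, and of the 22 higher genes, 0 and 13, where these patterns held 3.29% and 7.1% of all genes compared. Because the shares of the patterns differed between the libraries, values within the fibroblast pattern are given beside those over all members, and in this pattern 11 genes (0.243%) of 4532 were at least 2-fold higher and 53 (1.17%) lower. In the tendon pattern, of 961 genes 11 (1.14%) were at least 2-fold higher and 20 (2.08%) lower.

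Lrrc15 (chromosome 16, 30269302-30283256, minus strand), a leucine-rich repeat membrane gene of matrix-forming fibroblasts, had the largest ratio among the 11 higher genes given. It stood at 61.1 CPM (51.9 to 71.4) in Control and 194 CPM (175 to 214) in Dach1OE, in 13.5% of Control and 27.6% of Dach1OE members, a log2 ratio of 1.67 (1.40 to 1.95). It was 1.61 within the fibroblast pattern, 1.12 in female and 1.79 in male cells. The rule for naming genes required the same sign in both sexes, so their signs there are no check. Sema3e (chromosome 5, 14025276-14256689, plus strand), a secreted guidance cue that repels endothelial cells through Plexin-D1, stood at 128 CPM (115 to 143) in Control and 293 CPM (270.2 to 318) in Dach1OE, in 137 Control and 212 Dach1OE members, a log2 ratio of 1.19, with 1.03 within the fibroblast pattern, 0.81 (0.47 to 1.16) in female and 2.07 (1.60 to 2.55) in male cells. In cells with Cdh5 it stood at 3.45 and 4.86 CPM.

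Efemp1, which encodes the elastic fibre protein fibulin-3, stood at 55.6 CPM in Control and 132 CPM in Dach1OE, with the log2 ratio 1.25 (0.95 to 1.55). Osr2 went from 67.3 to 149 CPM, 1.14 (0.87 to 1.42), and Foxd1, a forkhead transcription factor of stromal cells, from 19.4 to 42.1 CPM, 1.12 (0.59 to 1.65). Anxa3, an annexin gene, was the connective tissue fibroblast gene with the largest ratio, 1.11 (0.84 to 1.38). Ptgs1, which encodes the cyclooxygenase COX-1, had 1.05 (0.62 to 1.49). Arnt2, Col4a5, Sbsn and Tubb4a were the other 4 of the 11 genes given, with log2 ratios from 1.01 to 1.46. All 11 were above 0 in the fibroblast pattern, from 0.77 to 1.61. All 11 were also at least 2-fold higher in the fibroblast than in the tendon pattern in both libraries, against 7.1% of all genes compared.

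Kera (chromosome 10, 97606879-97613692, plus strand), which encodes the proteoglycan keratocan, had the largest ratio among the lower genes chosen. It stood at 509 CPM (481 to 537) in Control and 161 CPM (144 to 179) in Dach1OE, in 25.8% of Control and 15.3% of Dach1OE members, a log2 ratio of -1.66 (-1.84 to -1.49). It was -0.94 within the fibroblast pattern and -0.23 within the tendon pattern, and in cells with Cdh5 it stood at 9.73 and 1.67 CPM. Chodl stood at 395 CPM (371 to 419.7) in Control and 141 CPM (125 to 158) in Dach1OE, a log2 ratio of -1.49 (-1.68 to -1.30), with -0.51 within the tendon pattern and 11.7 and 2.28 CPM in cells with Cdh5. Both ratios were thus smaller in size within the fibroblast and the tendon pattern than over all members.

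Naalad2, a peptidase gene, went the other way on that score, with -1.52 (-1.99 to -1.06) over all members and -2.01 within the fibroblast pattern, from 72.3 to 25.3 CPM. Ctgf, which encodes connective tissue growth factor, a matricellular target of YAP and TGF-beta signalling, had the most UMIs of the 15, at 991 CPM (953 to 1030.0) in Control and 402 CPM (375 to 431) in Dach1OE, with -1.30 (-1.42 to -1.19) over all members, -0.69 within the fibroblast and -1.26 within the tendon pattern. Cpxm2, a carboxypeptidase-like gene, had -1.34 (-1.62 to -1.08). Spry4, an inhibitor of receptor tyrosine kinase signalling, had -1.22 (-1.68 to -0.78), Etv4, a transcription factor induced by such signalling, -1.14 (-1.77 to -0.55), and Hbegf, an EGF receptor ligand, -1.17 (-1.40 to -0.95). Within the fibroblast pattern these 3 stood at -1.36, -1.78 and -1.56, while Hbegf was at 0.34 within the tendon pattern. Rgs2 and Insc were above 0 within the fibroblast pattern, at 0.22 and 0.73, against -1.21 and -1.22 over all members. March3, Tmem204, Nr4a1, Bhlhe41 and Lepr were the others. Of the 15, 10 were higher in the tendon than in the fibroblast pattern, against 3.29% of all genes compared.

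**Figure D3:**
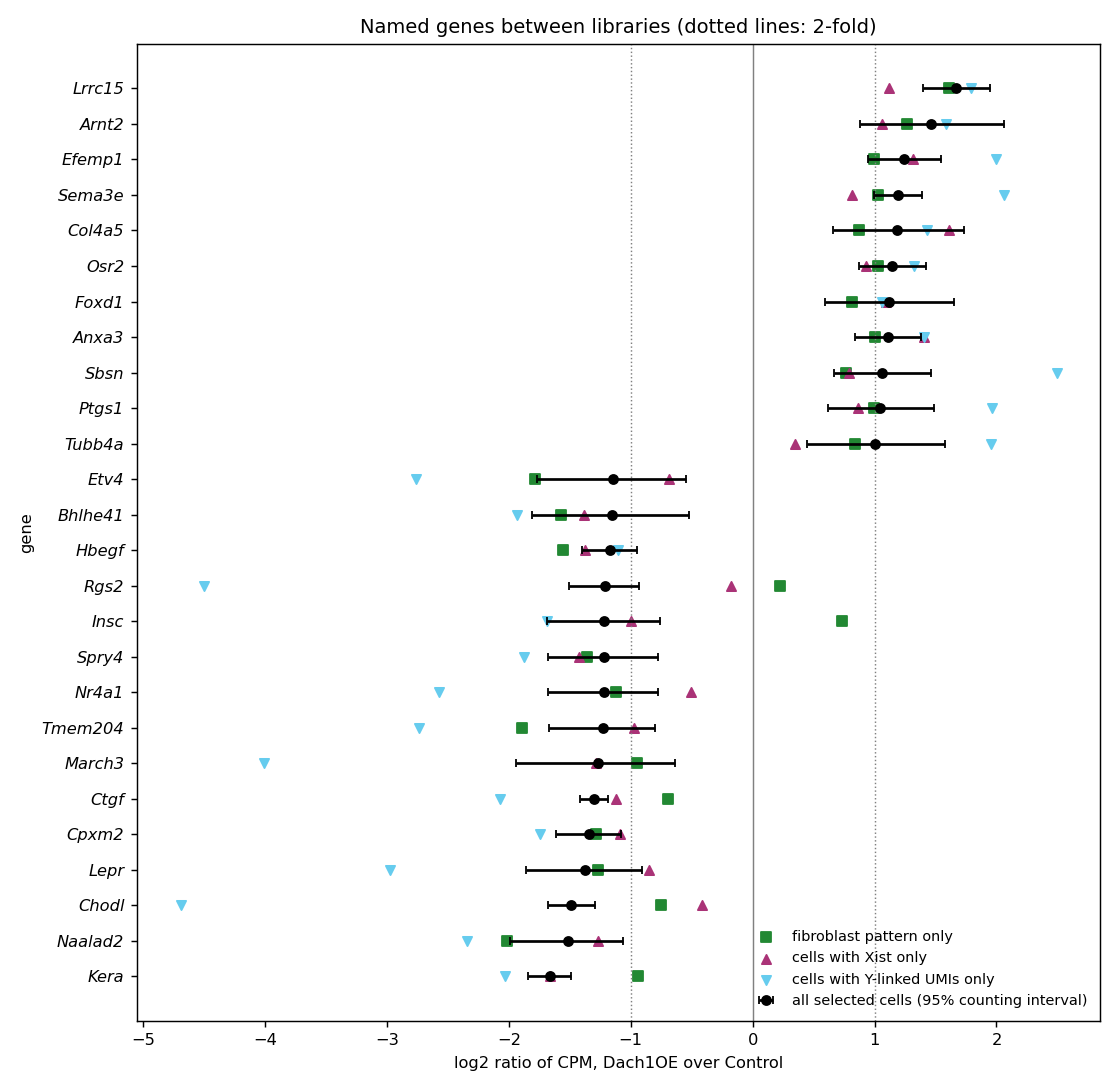
Log2 ratio of CPM, Dach1OE over Control, for the 11 higher and 15 lower genes given, in all selected cells (black, with 95% counting interval), in the fibroblast pattern (green), in cells with Xist only (purple) and in cells with Y-linked UMIs only (blue). Rgs2 and Insc are the genes whose fibroblast pattern value lies on the other side of 0.

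Lepr, the leptin receptor gene of marrow stromal cells, moved with other genes of those cells. Over 9 marrow stromal genes compared, 0 were at least 2-fold higher and 2, Lepr and Adipoq, the adiponectin gene, at least 2-fold lower, against 0.357% and 0.649% of all genes, with a median of -0.58. The list of 12 summed to 2059 and 1237 CPM in members and to 5546 and 2236 CPM in the other kept cells, with no gene at 0. The marrow stromal set itself held 2939 Control and 1320 Dach1OE cells. Cxcl12, a chemokine abundant in those cells, stood at 888 CPM in Control and 461 CPM in Dach1OE in members and at 1122 and 766 CPM in cells with Cdh5. Chondrocyte genes stood on the other side, with 6 of 10 intervals above 0 and 1 below, against 10.8% and 9.08% of all genes, and a median of 0.44, and they were also higher in the other kept cells of Dach1OE. The part of such RNA in the members' values was not tested.

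Some of the other ratios rested on few cells. Mmp9, a gelatinase gene typical of osteoclasts and blood cells, had the log2 ratio 2.61 (2.33 to 2.91), but 94.2% of the Control and 49.6% of the Dach1OE UMIs came from a single cell. For Mmp13, a collagenase gene of hypertrophic cartilage and bone, with 1.37 (1.13 to 1.61), a single cell gave 24.5% of the Control and 38.0% of the Dach1OE UMIs. Dmp1 and Phex, osteocyte genes, had 2.30 and 1.14, with Dmp1 seen in 13 Control and 9 Dach1OE cells, and both were below 0, at -0.71 and -1.21, without the 25% of members richest in osteoblast, marrow stromal and chondrocyte genes. Bglap3, an osteocalcin-family gene whose reads can be split with Bglap and Bglap2, had -2.12 from 27 and 9 cells. Over the 12 osteoblast and osteocyte genes compared the median was 0.17, and the 16 listed summed to 1874 and 1492 CPM.

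By lists, the connective tissue fibroblast genes were displaced to the Dach1OE side and the tendon genes to the Control side, mostly by less than 2-fold. Of the 23 fibroblast genes, 1 was at least 2-fold higher and 0 lower, against 0.357% and 0.649% of all genes compared. Intervals were above 0 for 18, against 10.8% of all genes, and the median was 0.33, against 0.15 within the fibroblast pattern. Cd55, a complement decay factor and surface marker of outer-layer fibroblasts, had 0.87 (0.72 to 1.03), Sema3c, another semaphorin, 0.72 (0.58 to 0.87), and Dpp4, a peptidase of interstitial progenitor fibroblasts, 0.53 (0.29 to 0.78). Of the 17 tendon genes, 0 were at least 2-fold higher and 2 lower, against 0.357% and 0.649% of all genes. Intervals were below 0 for 10, against 9.08% of all genes. The median was -0.38, against -0.19 over the 12 with enough UMIs in the fibroblast pattern and 0.093 over the 16 with enough in the tendon pattern. It was also above 0 with equal weights of the patterns, at 0.054, and with at least 3 of the 6 genes, at 0.22. Thbs4 stood at 2969 and 2176 CPM with -0.45 (-0.50 to -0.39) over all members and 0.061 within the tendon pattern, and Fmod had -0.53 (-0.60 to -0.47) and 0.044. The values of Thbs4 and Fmod within the tendon pattern, from 105 and 42 cells, were thus nearer to 0 than those over all members. Cilp2 went the other way, with -0.022 (-0.19 to 0.15) over all members and 0.88 within the tendon pattern.

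Prg4 and Myoc differed from that pattern. Prg4, the gene of the tendon list with the most UMIs, stood at 4156 CPM in Control and 2546 CPM in Dach1OE, a log2 ratio of -0.71 (-0.76 to -0.66) over all members and of -0.86 within the fibroblast pattern, where its level was higher. Myoc had -0.99 (-1.13 to -0.85) and -1.31. Both ratios were below 0 in female and in male cells, at -0.28 and -0.93 for Prg4 and -1.58 and -1.38 for Myoc.

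**Figure D4:**
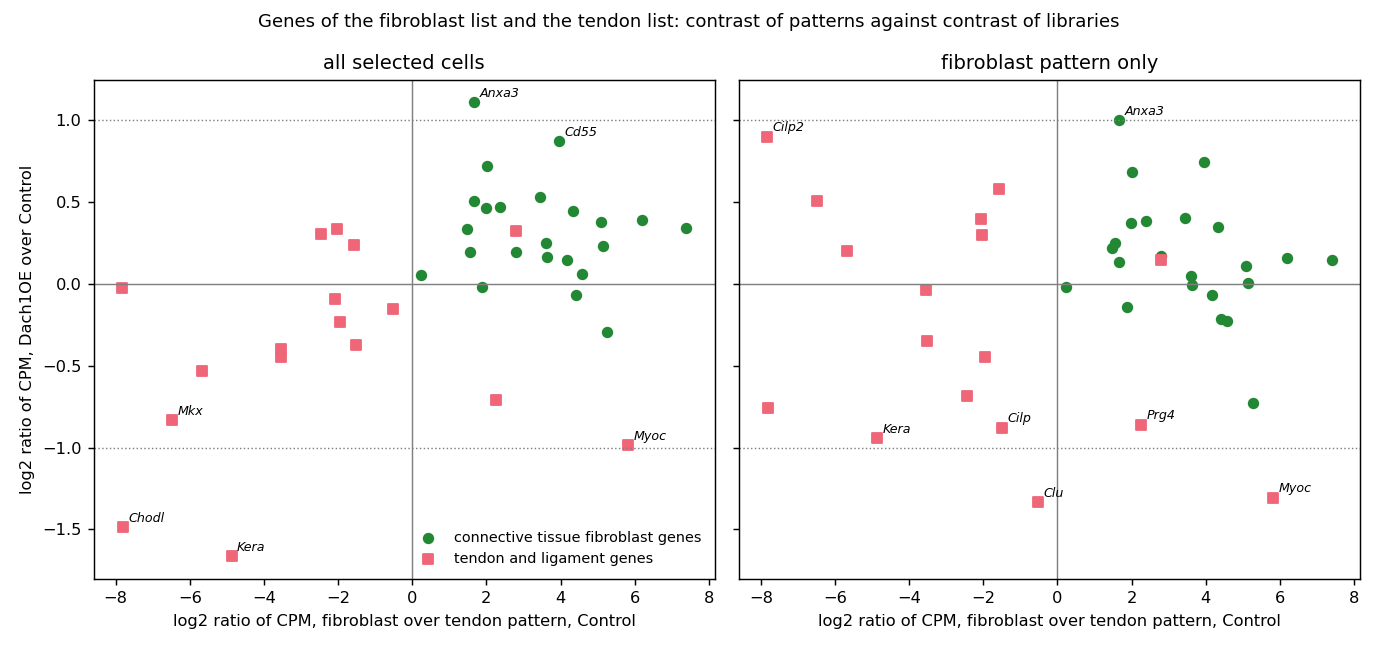
Genes of the connective tissue fibroblast list (green) and of the tendon and ligament list (red) by their log2 ratio of the fibroblast over the tendon pattern in Control (horizontal) and of Dach1OE over Control (vertical), over all selected cells (left) and within the fibroblast pattern (right). The axes share the Control library. Kera and Chodl lie below the lower 2-fold line on the left, and Myoc lies below it on the right. Of the 12 tendon genes with enough UMIs in the fibroblast pattern, 2 were at least 2-fold lower there, against 1.17% of all genes compared there.

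The tendon genes differed between the sexes in how the libraries compared, which is given here without a test. In female cells 11 of the 17 tendon genes were above 0 and 6 below, and the median log2 ratio was 0.14, and in male cells 14 of 17 were below 0 and 3 above, and the median was -1.10. Thbs4 stood at 2906 CPM in Control and 3421 CPM in Dach1OE in female cells, a log2 ratio of 0.24 (0.16 to 0.31). In male cells it stood at 3721 CPM in Control and 584 CPM in Dach1OE, a ratio of -2.67 (-2.86 to -2.48). Summed over all selected cells, the male cells of Dach1OE thus stood apart, with the female cells of both libraries and the male cells of Control well above them. Of the male members, 3 of 91 in Dach1OE and 22 of 103 in Control had the tendon pattern. Levels within a pattern were not split by sex, so a change in the share of tendon cells and a change within cells cannot be told apart here.

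Cilp, which encodes an intermediate layer protein that binds TGF-beta, had 0.41 (0.29 to 0.52) in female and -2.19 (-2.41 to -1.97) in male cells, and Col12a1 had 0.43 (0.23 to 0.63) and -1.31 (-1.61 to -1.02). Tnmd, a gene of the rule given as a description, stood at 1162 CPM in Control and 1256 CPM in Dach1OE in female and at 1885 CPM in Control and 239 CPM in Dach1OE in male cells. The microfibril gene Mfap4 had 0.17 (-0.032 to 0.36) and -4.21 (-4.95 to -3.55), with a female interval that included 0. Kera was below 0 in both sexes, with -1.67 (-1.94 to -1.40) and -2.03 (-2.61 to -1.49). The connective tissue fibroblast genes had 20 of 23 above 0 in each sex, with medians of 0.29 and 0.74.

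**Figure D5:**
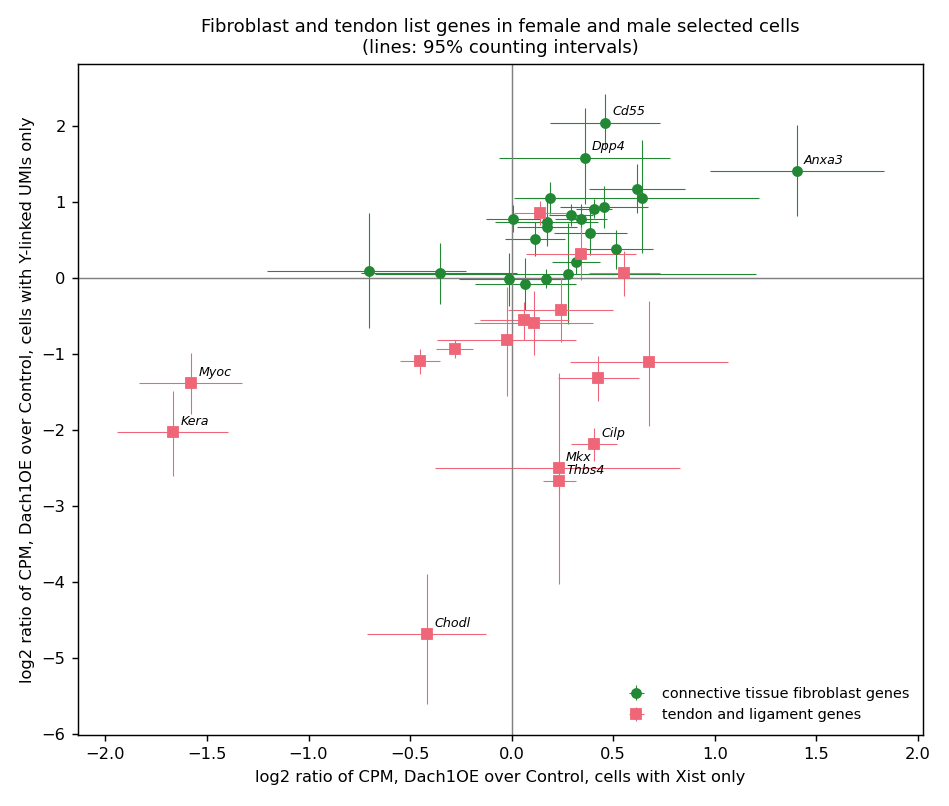
Log2 ratio of CPM, Dach1OE over Control, of 23 connective tissue fibroblast genes (green circles) and 17 tendon and ligament genes (red squares) in cells with Xist only (horizontal) and in cells with Y-linked UMIs only (vertical), with 95% counting intervals as lines. Tendon genes such as Thbs4, Cilp and Mkx lie right of 0 and far below it, whereas Kera and Myoc lie below 0 on both axes.

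The 5 matrix lists held from 0 to 2 genes at least 2-fold apart each, and of all genes compared 1.01% were. Of 21 collagen chains, 0 were at least 2-fold apart, with a median of -0.036, and Col1a1 had -0.25 (-0.26 to -0.23) over all members and 0.041 within the fibroblast pattern. Col22a1, a collagen of the muscle-tendon junction, had -0.86 (-1.04 to -0.68), and Col6a6, a chain of microfibril-forming type VI collagen, 0.96 (0.50 to 1.42). Of 11 small leucine-rich proteoglycans, Kera was the 1 at least 2-fold apart, and Prelp, Aspn and Ecm1, a matrix gene listed with them, had 0.52, 0.43 and 0.53. Of 15 elastic fibre genes, Efemp1 was the 1 at least 2-fold higher, and Mfap4, a microfibril gene, had -0.81 (-0.95 to -0.68). Of 19 collagen folding and cross-linking enzymes 0 were at least 2-fold apart, with a median of 0.020, and P4ha2, a prolyl hydroxylase gene, had 0.78 (0.46 to 1.10). Of 11 metalloproteinases and inhibitors, Mmp9 and Mmp13, described above, were at least 2-fold higher. Timp1, an inhibitor gene, had -0.90 (-1.05 to -0.75) and Timp2, the one with the most UMIs, -0.025 (-0.075 to 0.025).

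Signals between fibroblasts and vessels were of interest because the transgene was to act in endothelium. Of 13 receptors for endothelial factors and 13 factors acting on blood vessels compared, 0 were at least 2-fold apart, where 1.01% of all genes were, with medians of 0.058 and -0.092. Vegfa, the main endothelial growth factor, stood at 42.0 CPM in Control and 42.1 CPM in Dach1OE, a log2 ratio of 0.0041 (-0.42 to 0.43), and Vegfc, a growth factor of lymphatic vessels, had 0.76 (0.24 to 1.30). Ackr3, a scavenger receptor of Cxcl12, had 0.76 (0.63 to 0.89), Pdgfra 0.058 (-0.091 to 0.21) and Ntrk2, a neurotrophin receptor, -0.88 (-1.29 to -0.49). Thbs1, an inhibitor of angiogenesis, had -0.80 (-0.95 to -0.64). Sema3e was not on these lists. Of 18 genes of hypoxia and glycolysis, 0 were at least 2-fold apart, with a median of 0.036, and Hif1a, the oxygen-regulated transcription factor, had 0.45 (0.15 to 0.75).

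The counts in this paragraph over all members stand against 1.01% of all genes compared that were at least 2-fold apart. The count was 0 of 24 genes of the TGF-beta and BMP pathways and 0 of 10 insulin-like growth factor genes. It was 0 of 9 Wnt antagonists and modulators and 0 of 6 interferon-response genes. The medians were 0.015, -0.014, -0.41 and -0.13 in this order. Ltbp1, which stores latent TGF-beta in the matrix, had 0.64 (0.42 to 0.86), and Sfrp4 0.76 (0.60 to 0.92). Of 14 complement and chemokine genes, Ccl2 and Ccl7, chemokines for monocytes, were at least 2-fold lower, with -1.45 (-1.86 to -1.04) and -1.19 (-1.84 to -0.57), but Ccl2 came from 24 Control and 17 Dach1OE cells and Ccl7 from 21 and 21. In male cells both were above 0, at 2.04 and 0.24. Of 25 early response and stress genes, Nr4a1, an orphan nuclear receptor induced by stimulation, was the 1 at least 2-fold apart, with -1.22 (-1.68 to -0.78), and the median was -0.13. Of 14 cell cycle genes 0 were at least 2-fold apart over all members, with a median of -0.32. Within the fibroblast pattern 8 of 11 were at least 2-fold lower, against 1.17% of all genes compared there, where 22 Control and 12 Dach1OE cells with at least 20 UMIs of the list held 78.7% and 57.8% of its UMIs. In the tendon pattern 1 gene of the list had enough UMIs, the tubulin gene Tubb5, which was higher there at 1.42. In that pattern 4 of 105 Control and 4 of 42 Dach1OE cells with at least 20 UMIs of the list held 59.2% and 73.5% of its UMIs.

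Over the periosteal and skeletal progenitor genes, 0 of 15 were at least 2-fold apart, where 1.01% of all genes compared were, and the median was 0.014. Postn stood at 1417 CPM in Control and 1322 CPM in Dach1OE and had -0.10 (-0.17 to -0.027) over all members and 0.68 within the fibroblast pattern. Aspn, which encodes asporin, and Thy1 had 0.43 (0.34 to 0.51) and 0.54 (0.43 to 0.64), and Ogn, which encodes osteoglycin, -0.52 (-0.65 to -0.39). Postn stood at 1141 CPM in Control and 2011 CPM in Dach1OE in female cells and at 2082 CPM in Control and 713 CPM in Dach1OE in male cells. Of the list, 3 genes were higher in the fibroblast and 4 in the tendon pattern, against 7.1% and 3.29% of all genes compared. Its 16 genes summed to 5251 and 6225 CPM in the fibroblast pattern and to 8285 and 8130 CPM in the tendon pattern. Postn and Ogn were both genes of the tendon pattern and were above 0 in the fibroblast pattern.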

How the data were processed

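Cells of femur and tibia were captured on the BD Rhapsody system, with 1 library each for Control and Dach1OE. Per the file headers, the authors ran version 1.11 of the BD pipeline, whereas the methods name another version, and counted reads, introns included, on mm10 with GENCODE. The deposited counts are error-adjusted UMI counts (RSEC) per cell and gene, with no other normalization, and neither samples nor mice are marked among the cells of a library. Whether strand was used is not given in the sources used here, so reads of overlapping and antisense genes may be shared.

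Cells with 500 to 6000 genes and under 25% mitochondrial UMIs were kept, 26466 of 28720 and 29317 of 32028. The members, the gene lists and the rules for naming genes were chosen with earlier results of these data known. UMIs were summed over the cells of a set and scaled to counts per 1000000 UMIs of that set (CPM). A log2 ratio has a conditional exact binomial interval, a CPM an exact Poisson interval, a share an exact binomial (Clopper-Pearson) interval and a difference of shares a Newcombe interval, all at 95%. A gene was compared with at least 100 UMIs over the members of both libraries and called at least 2-fold apart with a log2 ratio of 1 or more either way and an interval off 0. Genes of the rule were left out of counts. In the text, 2 values joined by "and" for 1 quantity are Control and Dach1OE in this order, unless said otherwise, and ratios between libraries are Dach1OE over Control.

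Named between the libraries were up to 15 called genes each way with the largest ratio, seen in 10% or more of the members of the higher library and of the same sign in both sexes (12 higher, of which 1 is not reported here, and 15 lower qualified). Named by pattern were the 12 with the largest ratio each way in both libraries, and against other cells the 20 with the largest ratio. Genes of lists were named for their level or ratio. Sexes were read from Xist and from Ddx3y, Eif2s3y, Kdm5d and Uty. Ccn3, C1s, Ccn4, Ccn5 and Figf of the lists are not gene names in the tables. Coordinates are those of GENCODE on GRCm38. The alternatives varied the count table, the filters on cells and genes, the number of rule genes, the sex, the depth, the scaling, the weighting and doublets (Scrublet in scanpy 1.11.5). Leaving out shared barcodes and restricting to 1 pattern were added after the data were seen. Python 3.11.15, numpy 2.4.6, scipy 1.17.1, pandas 2.3.3 and edgeR 4.0.16 (TMM factors only) were used, and the ratio and its interval were tested on simulated data.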

Additional observations from a re-analysis of the deposited data

Results flagged for a closer look

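The results here compared Dach1OE with Control in opposite directions in cells with Xist and in cells with Y-linked UMIs, each with a counting interval off 0. The difference between the sexes was not tested, each sex of a pool stands for its own mouse or mice, and in male Dach1OE cells the tendon pattern rested on 3 cells.

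Thbs4 had log2 ratios of 0.24 and -2.67, Cilp 0.41 and -2.19, Col12a1 0.43 and -1.31, and Col22a1 0.29 and -3.74, in female and male cells. The fibrillin gene Fbn2 had 0.50 and -3.43, and the periosteal gene Postn 0.82 and -1.55. Smaller ratios of the same signs were those of Fndc1, at 0.16 and -0.33, Ssc5d, a scavenger receptor domain gene, at 0.29 and -0.90, and Timp2, at 0.086 and -0.11. Crabp2 had the opposite signs, at -0.48 in female and 1.68 in male cells.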

How the results depend on the processing

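The comparison has 1 library a side, so that the spread between mice is unknown and the counting intervals are narrower than any that would include it. Depth set what could be called: with at least 20 UMIs per gene instead of 100, 134 genes were at least 2-fold higher in Dach1OE and 208 lower, and with at least 500 UMIs 5 and 9, because fewer genes were compared, and likewise 330 genes were higher in members than in other cells and 259 apart between the patterns. No paired analysis was possible because each group has 1 library and no result comes from a test.

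Raw instead of adjusted UMIs, under 10% mitochondrial UMIs, at least 1000 genes per cell, no Scrublet-marked cells and no shared barcodes left the shares within their intervals and the counts within 1.5 times, and so did TMM, which shifted every log2 ratio by -0.013, the mean over cells and equal weights of the patterns for the counts between libraries. With at least 3 of the 6 genes the difference in the share of members was -0.163 percentage points and those of the fibroblast, mixed and tendon pattern -5.03, 5.96 and -0.938, so that the fibroblast difference turned its sign. The counts were then 13 higher and 18 lower between libraries, 306 over other cells and 124 between patterns, from fewer cells. In cells with Xist only these 4 counts were 13, 25, 491 and 349, and the fibroblast difference was 1.55 points. In cells with Y-linked UMIs only they were 53, 70, 339 and 85, with 17.7 points for the fibroblast and -18.1 for the tendon pattern. The share of members differed by -0.257 points after thinning and by -0.911 of the cells without Cdh5 and Ptprc. The genes higher in Dach1OE numbered 14 without the 25% of members richest in genes of other cells, 11 within the fibroblast and 11 within the tendon pattern, and those lower in the tendon pattern 20, where fewer genes could be compared.

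Of 1619 values of 118 named genes between the libraries, 21 were on the other side of 0 from a called value, and the cause was not tested. Genes less than 2-fold apart over all members could not count, so 21 of 1619 is not a rate. Genes named for the largest ratios between the libraries could not turn within a sex, because the same sign there was required. In the fibroblast pattern these were Col26a1 (0.41), Insc (0.73), Rgs2 (0.22) and Scube2 (1.09). In the tendon pattern they were Anxa3 (-0.28), Dmp1 (-0.60), Hbegf (0.34) and Mmp13 (-3.65). In cells with Xist they were Dmp1 (-0.97), Phex (-1.24), Scube2 (0.16) and Zfp185 (0.23), and in cells with Y-linked UMIs Ccl2 (2.04), Ccl7 (0.24), Mmp13 (-0.60) and Phex (-0.83). With at least 3 of the 6 genes they were Dmp1 (-0.41), Mmp13 (-0.18) and Phex (-1.35), and without the 25% named above Dmp1 (-0.71) and Phex (-1.21). The median of the tendon and ligament genes turned from -0.38 to 0.22 with at least 3 of the 6 genes, 0.12 over the genes with at least 100 UMIs in cells with Xist, 0.054 with equal weights of the patterns and 0.093 within the tendon pattern, and that of the interferon-response genes to 0.037 in cells with Y-linked UMIs. Shared barcodes and single patterns were tried after the data were seen.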
